A study of Mus musculus with 8 samples.

Results

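The genotype effect of intestinal Elf4 loss on the liver, taken over both diets, was read from 4 Elf4-/- libraries set against 4 WT libraries, all 8 libraries of the series. Every library of either genotype entered the comparison, with diet as a covariate, with the aim of finding genes that differed by genotype irrespective of diet. The mice were male C57BL/6 animals of 9 weeks of age. Elf4-/- stands for Elf4fl/fl-Villin-Cre, in which Cre recombinase driven by the villin promoter removes Elf4 from the intestinal epithelium and liver cells are not its target, and the WT animals carried Cre as well per the study's methods. Each genotype received a Lieber-DeCarli liquid diet for 21 days, either with 5% (w/v) alcohol (EtOH) or with maltose dextrin of the same caloric content (Control). WT-Control, Elf4-/--Control, WT-EtOH and Elf4-/--EtOH therefore held 2 libraries each. The labels do not say that the libraries of a group came from separate animals, so the p-values measure the spread between these samples.

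ELF4 is a transcription factor of the ETS family with known roles in immune cells and epithelia. Blood from the gut reaches the liver through the portal vein and carries nutrients, bile acids and bacterial products. The liver turns surplus carbohydrate into fatty acids and makes cholesterol through the mevalonate pathway, and both programmes are known to be switched on by sterol regulatory element-binding proteins (SREBPs) and, for lipogenesis, by insulin and carbohydrate supply.

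Between 6171051 and 9157362 reads were assigned to genes per library. Genes with too few reads in every group were removed, which left 13993 of 19267 genes. Levels are given in CPM, read counts relative to the library size after TMM scaling, which do not correct for gene length. Genes of the mitochondrial genome took 10.8% to 33.7% of the counts, with both WT groups at the ends of this range and the Elf4-/- libraries between 18.3% and 22.1%. The first principal component (51.6% of the variance) separated the diets, and the second (12.9%) set Elf4-/--EtOH replicate 1 apart from the other libraries. Over 9398 genes averaging 50 counts or more, replicates differed on the log2 scale with an SD from 0.347 in WT-EtOH to 0.668 in Elf4-/--EtOH, where counting error alone gave 0.165 to 0.219. The liver label was checked against 12 hepatocyte markers, all of which were detected, at a summed level of 49747 to 91328 CPM.

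Elf4 itself (chrX:48411046-48463132 of GRCm38, minus strand, protein coding) was read 6 and 11 times in WT-Control, 27 and 36 times in WT-EtOH, 12 and 6 times in Elf4-/--Control, and 14 and 34 times in Elf4-/--EtOH. The genotypes overlapped in both diets. Its log2 fold change was −0.25 ± 0.39 (SE), with a 95% interval of −1.01 to 0.50 (edgeR quasi-likelihood, adjusted p = 0.965 by the Benjamini-Hochberg method). As the deletion is intestinal, the liver value does not check the genotype labels. Of 40 other tested genes within 10 Mb of Elf4, 0 passed the test, 1 was higher and 2 were lower at an unadjusted p under 0.05 (edgeR), and DESeq2 called 0.

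To find the genes that differed by genotype over both diets, an additive model was fitted with edgeR. Its genotype term is an average over the diets and does not by itself require a difference in each. After adjustment, 7 genes passed the threshold of 0.05, or 0.05% of the genes tested. Of these, 6 rose in Elf4-/- livers (0.0429%) and 1 fell (0.00715%). The 6 that rose were Thrsp, Noct, Acacb, Pmvk, Chrna4 and Tmem254a, by 2.96-fold to 15.5-fold, and the gene that fell was the long noncoding RNA Gm42031. Before adjustment, 534 genes (3.82%) were higher and 372 (2.66%) were lower at p under 0.05. The median log2 fold change over all genes tested was 0.01, and the median SE of a gene was 0.227.

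Thrsp and Acacb are members of the fatty acid synthesis list read below, and Pmvk of the cholesterol synthesis list. Thrsp (Spot 14) is a nuclear and cytosolic protein known to promote lipogenic gene expression. It lies at chr7:97412938-97417730 on the minus strand. Thrsp stood at 99.7 and 103 CPM in WT-Control and 26.7 and 42.5 CPM in WT-EtOH, against 517 and 549 CPM in Elf4-/--Control and 381 and 444 CPM in Elf4-/--EtOH. The lowest Elf4-/- library was above the highest WT library, whichever diet they came from. Its log2 fold change was 2.98 ± 0.27 (SE, n = 4 per genotype), a rise of 7.88-fold (edgeR quasi-likelihood, adjusted p = 0.00531), and the separate values were 2.39 under Control and 3.57 under EtOH. Without Elf4-/--EtOH replicate 1, the value was 2.93 (edgeR, adjusted p = 0.00276).

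Acacb encodes acetyl-CoA carboxylase 2, whose product malonyl-CoA is known to restrain entry of fatty acids into mitochondria. The gene spans chr5:114146535-114250761 on the plus strand. In the WT livers it measured 27.0 and 16.7 CPM under Control and 71.8 and 69.8 CPM under EtOH. The Elf4-/- values were 87.9 and 55.2 CPM under Control and 217 and 173 CPM under EtOH. The genotypes did not overlap within a diet, but the diet itself shifted Acacb by 1.57 on the log2 scale (edgeR, adjusted p = 0.0012), so that Elf4-/--Control and WT-EtOH libraries overlapped. The genotype difference was 1.58 ± 0.20 (SE) on the log2 scale (edgeR, adjusted p = 0.0279), with 1.71 under Control and 1.46 under EtOH.

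Pmvk encodes phosphomevalonate kinase, an enzyme of the mevalonate pathway that leads to cholesterol, and sits at chr3:89454541-89469013 on the plus strand. It was a gene of low level, with 3.91 and 6.24 CPM in WT-Control, 9.72 and 7.42 CPM in WT-EtOH, 17.8 and 11.2 CPM in Elf4-/--Control, and 23.1 and 30.1 CPM in Elf4-/--EtOH. All 4 Elf4-/- libraries were above all 4 WT libraries. The log2 fold change of 1.58 ± 0.23 (SE) was just inside the threshold (edgeR, adjusted p = 0.0495), and it was 1.52 under Control and 1.64 under EtOH.

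Noct encodes nocturnin, a phosphatase of NADP(H) whose transcript is known to follow the daily cycle and to respond to feeding (chr3:51224447-51251644, plus strand). It measured 25.9 and 50.3 CPM in WT-Control and 24.9 and 30.4 CPM in WT-EtOH. In Elf4-/- livers the same gene measured 117 and 150.1 CPM under Control and 105 and 135 CPM under EtOH. No Elf4-/- library came near the WT range. Noct rose by 1.97 ± 0.22 (SE) on the log2 scale (edgeR, adjusted p = 0.0141), with 1.81 under Control and 2.12 under EtOH. Annotated Noct transcripts share stretches of at least 200 bases, at an identity of at least 95%, with 39 other genes, 7 of them in the table, so reads in those stretches are uncertain.

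Chrna4 encodes the alpha 4 subunit of the nicotinic acetylcholine receptor, a ligand-gated ion channel best known from neurons (chr2:181018380-181043546, minus strand). Its levels were 17.1 and 11.6 CPM in WT-Control, 0.505 and 1.42 CPM in WT-EtOH, 116 and 88.4 CPM in Elf4-/--Control, and 77.2 and 38.3 CPM in Elf4-/--EtOH. The genotypes were wholly separate, and the WT level was lower under EtOH. Chrna4 showed the largest rise of the 6, with a log2 fold change of 3.96 ± 0.54 (SE), or 15.5-fold (edgeR, adjusted p = 0.0362). The difference was 2.84 ± 0.38 (SE) under Control and 5.82 ± 0.49 (SE) under EtOH. This gap of 2.99 ± 0.62 (SE) did not pass the interaction test over all genes (edgeR, adjusted p = 0.220, unadjusted p = 0.000738).

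Tmem254a, which encodes a transmembrane protein (chr14:25923300-25927672, minus strand), measured 51.4 and 41.9 CPM in WT-Control, 46.3 and 47.5 CPM in WT-EtOH, 109 and 133 CPM in Elf4-/--Control, and 189.6 and 126 CPM in Elf4-/--EtOH. Every Elf4-/- library exceeded every WT library. The rise was 1.56 ± 0.18 (SE) on the log2 scale (edgeR, adjusted p = 0.0141). The annotated copies Tmem254b and Tmem254c share 1447 and 1211 bases with it at 100% identity and have no rows of their own in the table, so these reads cannot be assigned to 1 copy. Within 500 kb of Tmem254a, 10 other genes were tested. Of these, 3 (Anxa11, Plac9a and Cphx1) were higher in Elf4-/- with no overlap within either diet, against 3.61% of all genes tested. None of the 10 passed the test (edgeR, smallest adjusted p = 0.353, with 2 at an unadjusted p under 0.05). DESeq2 called Plac9a among them, at an adjusted p of 0.0132. In windows of the same size around each of the other called genes, 8 to 35 other genes were tested. Of these, 0 to 1 were higher and 0 to 3 lower with no overlap within either diet. The 3 lower were among 18 tested around Chrna4, against 3.24% of all genes tested.

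Gm42031, a long intergenic noncoding RNA (chr8:85125872-85132289, minus strand), was the one gene that fell. Its counts were 199 and 97 under Control and 40 and 52 under EtOH in the WT livers. In the Elf4-/- livers they were 0 and 2 under Control and 4 and 1 under EtOH, below every WT library. Over both diets, 388 counts in WT stood against 7 in Elf4-/-. Scaled for library size, the ratio of WT to Elf4-/- was 58.8, with an exact 95% interval of 28.3 to 147 that covers counting error only. The scaled ratio was 226 (61.9 to 1872) under Control and 14.3 (5.93 to 45.2) under EtOH. The fitted log2 fold change was −5.88 ± 0.69 (SE, adjusted p = 0.0141, edgeR). Its mean of 49.4 counts was below the 50 required of a named gene, so it was added after its values were seen. Of 35 other tested genes within 500 kb, 0 passed the test (edgeR, smallest adjusted p = 0.561, with 1 higher and 1 lower at an unadjusted p under 0.05, and 0 called by DESeq2). Its transcript of 1885 bases shares long stretches with other transcripts, among them 748 bases at 98.7% identity with Gm43305 and 614 bases at 92.3% with Gm4316, so reads may have been shared. Gm4316, with a mean of 15.75 counts, had a log2 fold change of −4.59 (edgeR, adjusted p = 0.230) and was called by DESeq2 (adjusted p = 0.00309). Gm43305 had 2.07 (edgeR, adjusted p = 0.865).

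**Figure D1:**
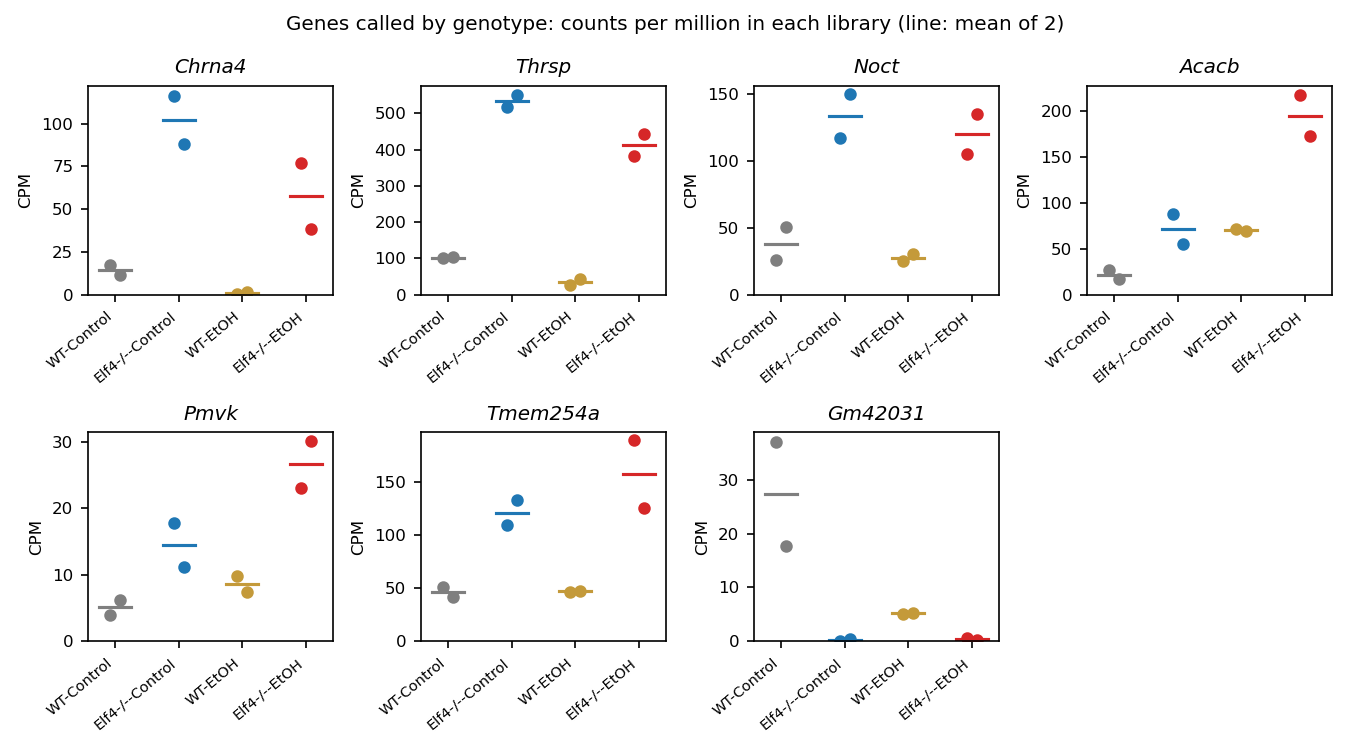
CPM (y axis, from 0) of the 7 genes that passed the genotype test, in the 2 libraries of each of the 4 groups. Points are libraries and lines are group means; in every panel the Elf4-/- points of a diet lie on one side of the WT points of that diet, with Gm42031 the one gene below WT.

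The promoters of Thrsp, Noct, Acacb and Pmvk are shown because these are the 4 called genes whose windows held a CCAAT box. The windows of the other 3 called genes, Chrna4, Tmem254a and Gm42031, held none of the motifs searched. The sequences are from RefSeq (GRCm38.p6) and run from 250 bases before to 50 bases after a start site, 5′ to 3′, with each CCAAT box (letters CCAAT on either strand) in capitals.
Thrsp, chr7:97417501-97417800, minus strand: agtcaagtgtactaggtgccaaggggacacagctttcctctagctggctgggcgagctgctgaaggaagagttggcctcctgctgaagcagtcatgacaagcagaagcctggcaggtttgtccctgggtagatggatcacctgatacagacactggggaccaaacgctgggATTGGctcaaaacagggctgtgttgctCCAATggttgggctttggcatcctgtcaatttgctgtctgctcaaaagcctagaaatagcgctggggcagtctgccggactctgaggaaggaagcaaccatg
Noct, chr3:51224197-51224496, plus strand: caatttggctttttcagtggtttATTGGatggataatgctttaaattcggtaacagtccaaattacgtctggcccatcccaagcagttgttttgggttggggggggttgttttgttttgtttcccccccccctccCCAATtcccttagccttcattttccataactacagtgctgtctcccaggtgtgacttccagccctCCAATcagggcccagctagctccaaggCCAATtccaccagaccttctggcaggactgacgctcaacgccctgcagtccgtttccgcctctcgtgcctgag
Acacb, chr5:114165268-114165567, plus strand: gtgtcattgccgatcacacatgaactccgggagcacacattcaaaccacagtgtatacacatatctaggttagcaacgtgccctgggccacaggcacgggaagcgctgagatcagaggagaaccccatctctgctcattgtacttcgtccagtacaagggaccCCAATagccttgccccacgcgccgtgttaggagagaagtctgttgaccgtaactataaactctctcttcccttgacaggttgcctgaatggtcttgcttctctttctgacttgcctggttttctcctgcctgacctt
Pmvk, chr3:89454291-89454590, plus strand: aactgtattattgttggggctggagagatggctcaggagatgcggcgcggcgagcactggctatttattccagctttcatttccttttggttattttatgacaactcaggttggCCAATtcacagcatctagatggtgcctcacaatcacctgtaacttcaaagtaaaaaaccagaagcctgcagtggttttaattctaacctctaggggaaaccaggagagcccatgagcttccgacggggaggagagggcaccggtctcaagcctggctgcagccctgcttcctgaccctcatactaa
The Acacb and Thrsp windows each belong to a start site inside the span of the annotated gene. Both strands of the RefSeq windows of 10294 tested genes were searched for the CCAAT box, for a sterol response element (TCACNCCAC), for an E-box (CACGTG) and for an ETS core (ACCGGAAGT), and these were found in 42.7%, 1.47%, 11.6% and 2.45% of genes. No motif contains another. Among the called genes and the 10 next by p, 9 with a positive log2 fold change had a window. Of these, 5 held a CCAAT box and 0 any of the other motifs. A CCAAT box was found in 14 of 15 genes of the cholesterol synthesis list that had a window (93.3%) and in 13 of 20 of the fatty acid synthesis list (65.0%). The sterol response element was found in 1 of the 15 and 1 of the 20, the E-box in 3 of the 15 and 3 of the 20, and the ETS core in 0 of both lists. These matches describe letters and are not evidence of a bound factor.

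The additive effect was also read diet by diet. All 7 genes had the same sign and no overlap within both diets. No gene passed the test of interaction between genotype and diet over all genes (0%, smallest adjusted p = 0.108 in edgeR). At an unadjusted p under 0.05, the interaction test had 1412 of the 13993 genes (edgeR). That is more than the genotype term had, with 534 higher and 372 lower. Across all genes tested, 505 (3.61%) had both Elf4-/- libraries above both WT libraries in each diet, and 454 (3.24%) had both below. Of the 505, 308 had an unadjusted p under 0.05, 98 differed at least 2-fold and 162 were separate over all 8 libraries. Of the 454, these numbers were 220, 53 and 121. A gene that differed in 1 diet more than in the other adds to the residual of the additive model. The biological coefficient of variation was 24.5% in the additive model and 22.7% in the model with 4 separate groups.

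**Figure D2:**
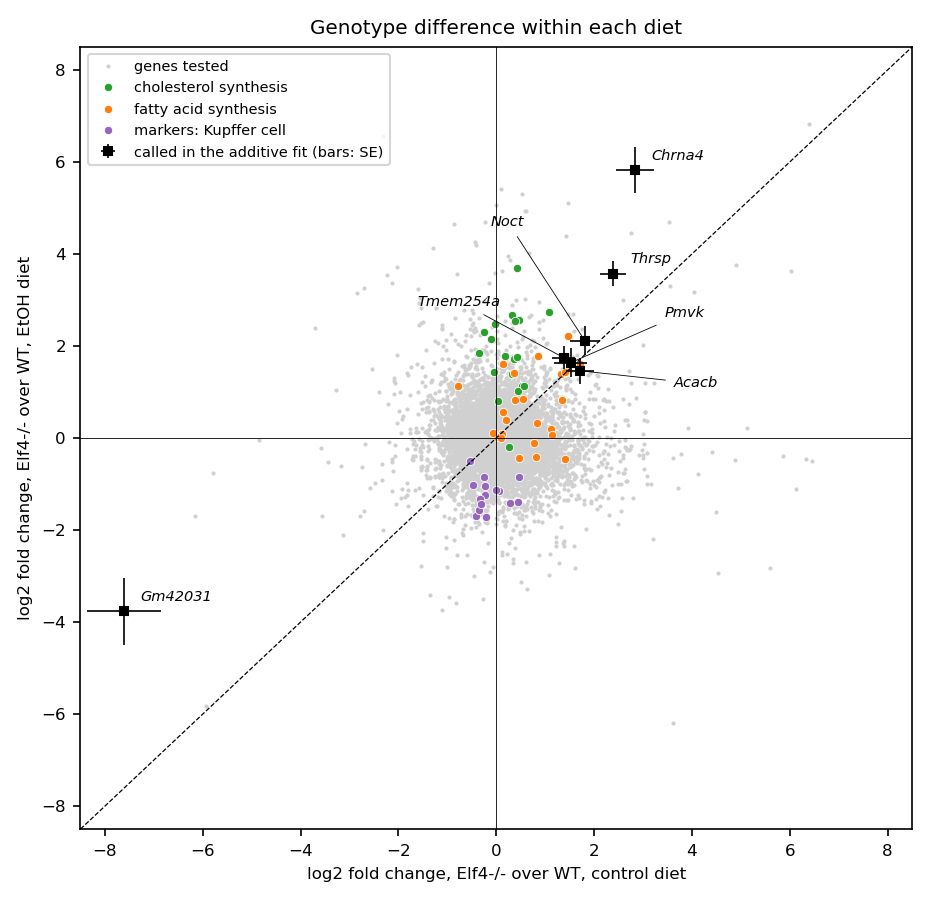
Log2 fold change of Elf4-/- over WT under Control (x axis) and under EtOH (y axis) for the 13993 genes tested (grey), with cholesterol synthesis genes in green, fatty acid synthesis genes in orange, Kupffer cell markers in purple and the 7 called genes as black squares with SE bars. The dashed line marks equal values; Noct, Acacb, Pmvk and Tmem254a lie near it and Chrna4, Thrsp and Gm42031 above it, while cholesterol synthesis genes spread upward along the EtOH axis.

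Outside the threshold, the 10 genes of smallest p that averaged 50 counts or more included Mpeg1, Celsr1, Ppp1r3b, Gm49980, Socs2, Ccdc50, Acss2, Sgf29 and Camk2b, at adjusted p between 0.0568 and 0.182 (edgeR). Mpeg1, the pore-forming perforin-2 of macrophages, measured 43.5 and 49.8 CPM in WT-Control, 67.6 and 55.7 CPM in WT-EtOH, 27.0 and 26.2 CPM in Elf4-/--Control, and 33.4 and 31.1 CPM in Elf4-/--EtOH. The genotypes did not overlap, and the log2 fold change was −0.87 ± 0.13 (SE, adjusted p = 0.0568, edgeR). Celsr1, a cadherin of planar cell polarity, had a log2 fold change of 1.08 ± 0.16 (SE, adjusted p = 0.0568, edgeR). Its levels were 10.4 and 14.0 CPM in WT-Control, 7.70 and 7.93 CPM in WT-EtOH, 25.7 and 27.2 CPM in Elf4-/--Control, and 14.5 and 17.7 CPM in Elf4-/--EtOH.

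Ppp1r3b, which brings protein phosphatase 1 to glycogen, had a log2 fold change of 1.33 ± 0.22 (SE, adjusted p = 0.123, edgeR), the same in both diets to 2 decimals. It measured 74.4 and 47.9 CPM in WT-Control, 76.8 and 84.0 CPM in WT-EtOH, 169.7 and 138 CPM in Elf4-/--Control, and 138 and 267 CPM in Elf4-/--EtOH. The genotypes did not overlap. Socs2, a feedback inhibitor of growth hormone signalling, had a value of −1.24 ± 0.23 (SE, adjusted p = 0.174, edgeR), with 20.8 and 30.7 CPM in WT-Control, 54.4 and 49.02 CPM in WT-EtOH, 11.2 and 11.5 CPM in Elf4-/--Control, and 13.4 and 28.7 CPM in Elf4-/--EtOH. Camk2b, the beta subunit of a calcium/calmodulin-dependent kinase, had −0.95 ± 0.18 (SE, adjusted p = 0.182, edgeR). Ccdc50 had 0.90 ± 0.17 (SE), Sgf29, a subunit of the SAGA coactivator, had 1.24 ± 0.23 (SE), and the predicted gene Gm49980 had −1.80 ± 0.32 (SE). Exons of Sgf29 overlap Sult1a1 and 2510046G10Rik on the opposite strand, and those of Acss2 overlap Ggt7, Acss2os and Gss, so their reads cannot be told apart where counting ignored strand.

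In cholesterol synthesis, all 20 listed genes had a positive log2 fold change, with a median of 1.02. Pmvk was the 1 gene that passed the test, 15 had an unadjusted p under 0.05, and 10 were higher in Elf4-/- with no overlap within either diet. Over all genes tested, 0.0429% were called higher, 3.82% were higher at that unadjusted p and 3.61% were higher with no overlap. The list had a median of 0.34 under Control and 1.77 under EtOH, with the EtOH value above the Control value in 19 of the 20 genes, and without Elf4-/--EtOH replicate 1 its additive median was 0.83 and Pmvk was again the 1 call. Sqle, the squalene epoxidase, had the widest gap between the diets, 0.42 under Control and 3.69 under EtOH, and its additive value of 1.98 ± 0.59 (SE) had an adjusted p of 0.521 (edgeR). It measured 33.5 and 28.7 CPM in WT-Control, 5.93 and 6.71 CPM in WT-EtOH, 44.7 and 38.3 CPM in Elf4-/--Control, and 107 and 56.7 CPM in Elf4-/--EtOH. The 2 genotypes were separate within each diet. Acat2, which makes the acetoacetyl-CoA used by the pathway, had 0.53 under Control and 1.12 under EtOH. The mean of the within-diet differences in a model with 4 separate groups called 6 members, all higher (edgeR), among them Sqle, Dhcr7, Msmo1, Nsdhl and Pmvk. Over all 13993 genes tested, that model called 16 higher and 3 lower. DESeq2 called 7 members, all higher, among them Pmvk, Acat2, Dhcr7, Nsdhl, Msmo1 and Lss, where it called 56 higher and 25 lower over all 13993 genes.

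In fatty acid synthesis, 26 of 27 listed genes were tested and all 26 had a positive log2 fold change, with a median of 0.59. The medians within the diets were close, 0.80 under Control and 0.70 under EtOH. Thrsp and Acacb passed the test, 12 members had an unadjusted p under 0.05 and 10 did not overlap within either diet, all higher. The matching shares of higher genes over all genes tested were 0.0429%, 3.82% and 3.61%. The summed level of the list was 5528 and 6862 CPM in WT-Control against 10319.6 and 9666 CPM in Elf4-/--Control, and 4352 and 4806 CPM in WT-EtOH against 6249.8 and 7679 CPM in Elf4-/--EtOH. These sums did not overlap within a diet.

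Among the members that did not pass, Fasn, the fatty acid synthase, measured 161 and 222 CPM in WT-Control, 82.3 and 88.1 CPM in WT-EtOH, 721 and 338 CPM in Elf4-/--Control, and 169 and 618 CPM in Elf4-/--EtOH. Its Elf4-/--EtOH replicates were far apart, and replicate 1 lay within the range of WT-Control. The log2 fold change was 1.84 ± 0.39 (SE, adjusted p = 0.230, edgeR). Acly, which provides cytosolic acetyl-CoA from citrate, had 1.65 ± 0.41 (SE, adjusted p = 0.353), with 39.6 CPM in Elf4-/--EtOH replicate 1 and 161 CPM in replicate 2. Without Elf4-/--EtOH replicate 1, edgeR called 6 members of the list, all higher (Thrsp, Fads2, Acacb, Fads1, Fasn and Acly), and the median of the list was 0.66. Acss2, which activates acetate, the end product of ethanol oxidation, had 1.31 ± 0.24 (SE, adjusted p = 0.174, edgeR). The desaturases Fads1 and Fads2 had 1.09 ± 0.21 (SE) and 1.35 ± 0.26 (SE), both at an adjusted p of 0.182. Srebf1, the SREBP gene of lipogenesis, had 0.88 ± 0.45 (SE, adjusted p = 0.802), and Mlxipl, which encodes the carbohydrate-responsive factor ChREBP, had a log2 fold change of 0.02. DESeq2 called 7 members, all higher, of the 56 higher genes among all 13993 tested.

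**Figure D3:**
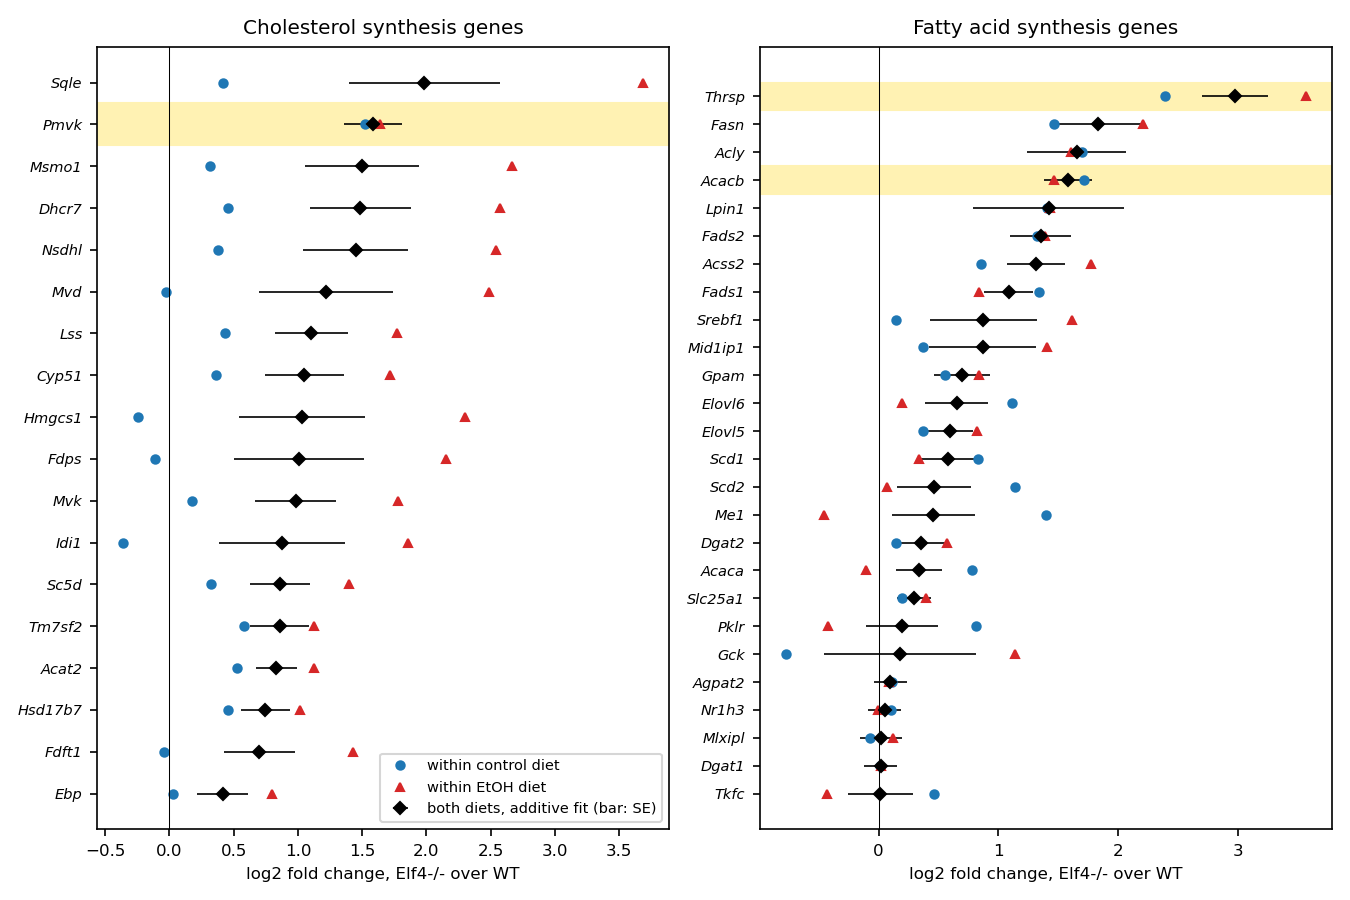
Log2 fold change of Elf4-/- over WT (x axis) for tested genes of cholesterol synthesis (left, 18 of 20 drawn) and fatty acid synthesis (right, all 26), as the additive estimate with its SE (black), within Control (blue circles) and within EtOH (red triangles). Shaded genes passed the test; in cholesterol synthesis the EtOH value lies right of the Control value in all 18 drawn and in 19 of the 20 tested, and Pmvk has nearly equal values.

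Other lipid lists showed 0 called members (edgeR). For counts at an unadjusted p under 0.05 here and below, the shares over all genes tested were 3.82% higher and 2.66% lower. Of 15 tested genes of sterol uptake, sensing and efflux, 8 had a positive log2 fold change, the median was 0.15 and 4 had an unadjusted p under 0.05 (all higher, with Stard4, Insig1 and Srebf2 among them), with 0 called by DESeq2. The median was −0.05 without Elf4-/--EtOH replicate 1. Fatty acid oxidation (26 tested) had a median of −0.06, which was 0.17 under Control and −0.30 under EtOH (EtOH above Control in 1 of 26), with 2 genes lower at an unadjusted p under 0.05, Fgf21 among them, and 0 called by DESeq2. Fgf21, a hormone of the fasted liver, had −1.11 ± 0.37 (SE, adjusted p = 0.588, edgeR). Leaving out WT-EtOH replicate 2 gave the list a median of 0.08, and leaving out Elf4-/--EtOH replicate 2 gave 0.02. Lipid droplet and triglyceride storage (21 tested) had a median of 0.19, and Fitm1, Tm6sf2 and Fabp2 were higher at an unadjusted p under 0.05, with 0 called by DESeq2. In bile acid synthesis and transport (23 tested), the median was 0.06, with Cyp7a1 and Akr1d1 higher and Nr0b2 lower at an unadjusted p under 0.05. Cyp7a1, the rate-limiting enzyme of bile acid synthesis, had 2.06 ± 0.48 (SE, adjusted p = 0.292, edgeR), with 3.54 and 27.9 CPM in WT-Control, 7.82 and 15.1 CPM in WT-EtOH, 33.9 and 72.8 CPM in Elf4-/--Control, and 57.1 and 61.8 CPM in Elf4-/--EtOH. The lowest Elf4-/- library lay above the highest WT library. DESeq2 called Akr1d1 of that list, at 0.98 (adjusted p = 0.0334).

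Lists tied to gut-derived signals and injury held 0 called genes as well (edgeR). Endotoxin sensing (18 tested) had a median of −0.15, with Casp1 lower at an unadjusted p under 0.05. Inflammation (14 tested) had a median of 0.00 and Cxcl13 lower, interferon response (27 tested) a median of 0.15 and Ifi27 higher, and fibrosis and matrix (17 tested) a median of 0.20 and no such gene. The interferon median was −0.22 under Control and 0.48 under EtOH, with EtOH above Control in 23 of 27. With each library left out, the medians ran from −0.35 to −0.07 for endotoxin sensing, −0.43 to 0.26 for inflammation, 0.02 to 0.27 for interferon response and 0.02 to 0.45 for fibrosis and matrix. DESeq2 called no member of these 4 lists. Acute phase genes (23 tested) had a median of −0.53, which was −0.98 under Control and −0.03 under EtOH, and 8 were lower at an unadjusted p under 0.05. Itih4, a secreted inter-alpha-trypsin inhibitor chain, measured 736 and 821 CPM in WT-Control, 1222 and 979 CPM in WT-EtOH, 380.2 and 502 CPM in Elf4-/--Control, and 682 and 680.0 CPM in Elf4-/--EtOH. It had no overlap and a log2 fold change of −0.76 ± 0.18 (SE, adjusted p = 0.330, edgeR). DESeq2 called Itih4 and Itih3, both lower, of the 25 lower genes among all 13993 tested. The unfolded protein response (22 tested) had a median of −0.32 with 5 genes lower at an unadjusted p under 0.05, led by the chaperone-like Creld2 at −1.04 ± 0.23 (SE, adjusted p = 0.276, edgeR, and 0.0241, DESeq2), and heat shock (19 tested) had a median of 0.02, with Hspa1b and Dnajb11 lower at an unadjusted p under 0.05. The heat shock median was 0.23 under Control and −0.18 under EtOH, and it was −0.18 without WT-Control replicate 2 and −0.08 without Elf4-/--Control replicate 2. Hspa1b had −0.25 ± 0.42 (SE) under Control, where the genotypes overlapped, and −2.70 ± 0.39 (SE) under EtOH. The acute phase median ran from −0.81 to −0.34 with each library left out.

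Clock genes were read because Noct cycles. Of 11 genes of the Per and Dbp phase, 8 had a positive value, the median was 0.23, and at an unadjusted p under 0.05 there were 3 higher (Ciart, Per3 and Usp2) and 1 lower (Bhlhe41). Of 5 tested genes of the Bmal1 phase, the median was 0.36, with 1 gene higher and 1 lower (Nfil3) at an unadjusted p under 0.05. This median became −0.37 when Elf4-/--EtOH replicate 1 was left out and −0.16 when WT-EtOH replicate 2 was, and it was −0.46 under Control and 0.19 under EtOH. Ciart, a clock repressor, had 38.5 and 20.6 CPM in WT-Control, 2.90 and 13.3 CPM in WT-EtOH, 74.0 and 102 CPM in Elf4-/--Control, and 29.6 and 26.2 CPM in Elf4-/--EtOH. Its log2 fold change was 1.66 ± 0.35 (SE, edgeR, adjusted p = 0.230, DESeq2 adjusted p = 0.00378). Bhlhe41, a transcriptional repressor of the clock, had −1.02 ± 0.35 (SE, adjusted p = 0.598, edgeR) and no overlap within either diet, at 14.0 CPM or less. Dbp, a strongly cycling clock output, had 0.10 ± 0.46 (SE), and Nfil3 of the opposite phase had −0.65 ± 0.17 (SE). The time of day at which the livers were taken was not given in the sources used here.

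The remaining function lists also had 0 called members (edgeR). Xenobiotic and ethanol oxidation (27 tested) had a median of 0.27, which ran from 0.00 to 0.46 with each library left out, and 4 genes were higher at an unadjusted p under 0.05, with Cyp3a11 at 0.80 ± 0.23 (SE, edgeR, adjusted p = 0.485, called by DESeq2 with an adjusted p of 0.0202). Medians were −0.21 for male-biased liver genes, 0.47 for female-biased liver genes, 0.19 for proliferation, 0.04 for antioxidant and glutathione genes, −0.05 for tight junction genes and 0.04 for the ETS family, with 1 to 2 members of each at an unadjusted p under 0.05 except tight junction, which had none. DESeq2 called no member of these 6 lists. Without Elf4-/--EtOH replicate 1 the female-biased and proliferation medians were −0.20 and −0.17, and without WT-Control replicate 2 the male-biased median was 0.03. The antioxidant, tight junction and ETS family medians changed sign with 3, 4 and 3 of the 8 libraries left out in turn.

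Cell type markers were set beside these results. All 15 Kupffer cell markers had a negative log2 fold change, with a median of −0.77, which was −0.23 under Control and −1.23 under EtOH and, in the additive fit without Elf4-/--EtOH replicate 1, −0.74. Of them, 11 had an unadjusted p under 0.05, 2 (Clec4f and Folr2) did not overlap within either diet and 0 were called (edgeR). Over all genes tested, 2.66% were lower at that unadjusted p and 3.24% were lower with no overlap. DESeq2 called Cd5l and Clec4f, of the 25 lower genes among all 13993 tested. The summed level of the 15 was 380 and 292 CPM in WT-Control, 1069 and 967 CPM in WT-EtOH, 309 and 295 CPM in Elf4-/--Control, and 444 and 431 CPM in Elf4-/--EtOH. All 15 were detected. Cd5l, a secreted scavenger protein of these macrophages, measured 49.5 and 34.5 CPM in WT-Control, 178 and 176 CPM in WT-EtOH, 35.2 and 28.0 CPM in Elf4-/--Control, and 56.3 and 53.8 CPM in Elf4-/--EtOH. In bulk liver, fewer cells of a type and less RNA per cell cannot be told apart, and the part of Kupffer cell content in the Mpeg1 value was not tested.

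The other marker lists had 0 called members by edgeR or DESeq2. Medians were 0.08 for hepatocytes, 0.08 for sinusoidal endothelial cells, 0.31 for stellate cells, 0.16 for bile duct, −0.41 for T, NK and B cells, −0.31 for neutrophils and monocytes and 0.08 for red blood cells. The T, NK and B cell median was 0.02 without WT-EtOH replicate 2. The neutrophil and monocyte median was 0.15 without WT-Control replicate 1, 0.06 without Elf4-/--Control replicate 2 and 0.19 without Elf4-/--EtOH replicate 2. The hepatocyte, endothelial, bile duct and red blood cell medians also changed sign, each with 1 or 2 of the libraries left out, and the stellate median ran from 0.01 to 0.56. The endothelial and stellate medians had opposite signs in the diets, at 1.05 and 0.997 under Control and −0.67 and −0.41 under EtOH. Of 12 intestinal epithelium markers, 4 were in the table and 3 were tested, with Fabp2 and Vil1 higher at an unadjusted p under 0.05 and Vil1 at most 1.94 CPM. Of the pancreatic acinar and adipose lists, 1 and 2 genes were tested, with medians of 0.54 and 0.48.

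**Figure D4:**
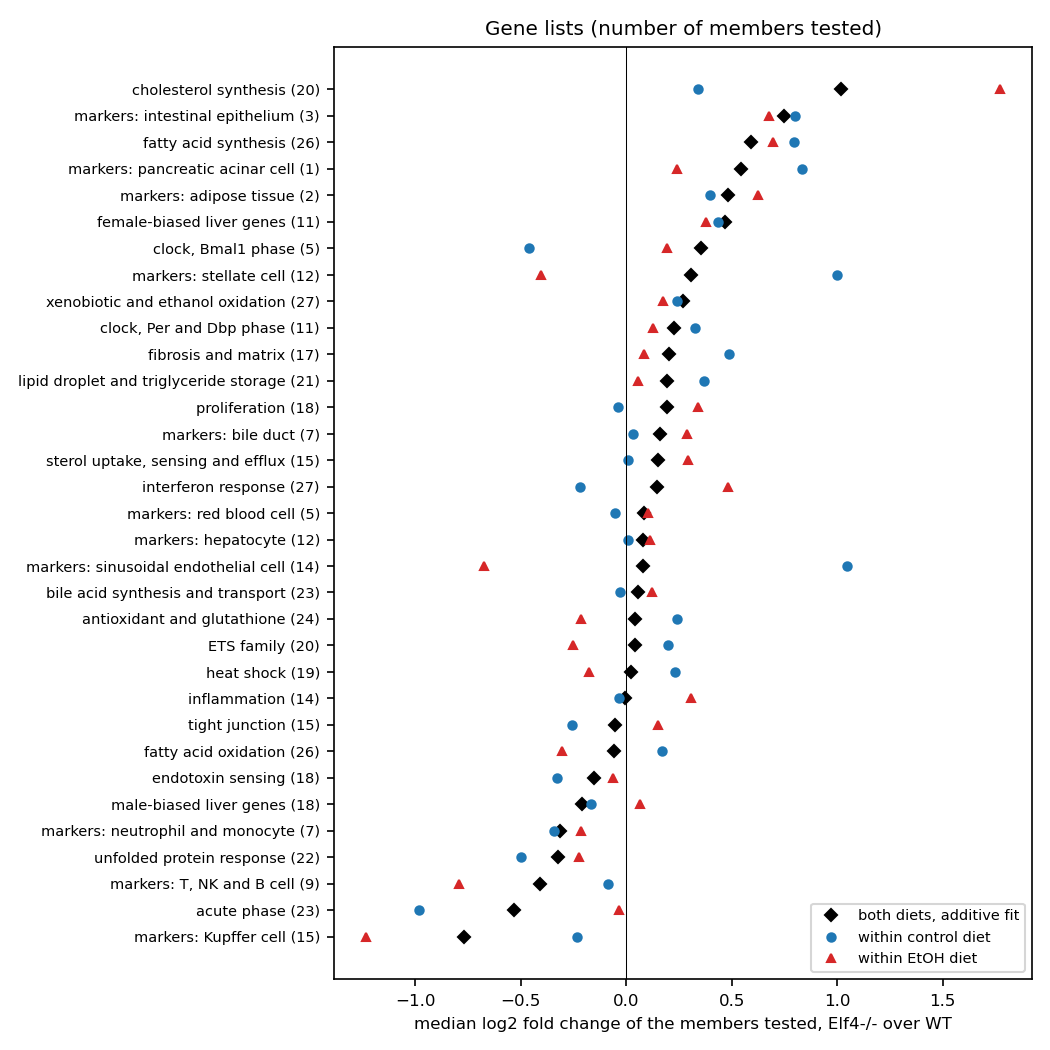
Median log2 fold change of Elf4-/- over WT (x axis) for the 33 gene lists, with the number of members tested in parentheses, from the additive fit (black), within Control (blue circles) and within EtOH (red triangles). Cholesterol synthesis has the highest additive median (1.02) and Kupffer cell markers the lowest (−0.77), and fatty acid synthesis has nearly equal medians in both diets.

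With 1 library left out, the median changed sign in 17 of the 33 lists, and in 6 lists (cholesterol synthesis, fatty acid synthesis, Kupffer cell, intestinal epithelium, pancreatic acinar and adipose) it stayed within 1.5 times its value. The medians within the diets had opposite signs in 14 lists.

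The number of called genes was small and moved with the library left out. With each library removed in turn, 0 to 20 genes were higher and 0 to 7 lower (edgeR). Without WT-EtOH replicate 2 no gene passed (453 higher and 310 lower at an unadjusted p under 0.05), where DESeq2 called 33 and 25 on the same libraries. Without WT-EtOH replicate 1 it was Thrsp alone, and without Elf4-/--EtOH replicate 1, the library apart from the rest, 20 rose and 7 fell, the 7 genes of the full fit among them. On all 8 libraries DESeq2 called 56 higher and 25 lower, again with the same 7 genes included. The sign of each of the 7 was the same in every alternative in which it was tested. Thrsp passed in 18 of 20 alternatives, Noct in 17, Tmem254a in 16, Gm42031 in 13 of 19, Acacb in 12, Chrna4 in 10 and Pmvk in 9.

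**Figure D5:**
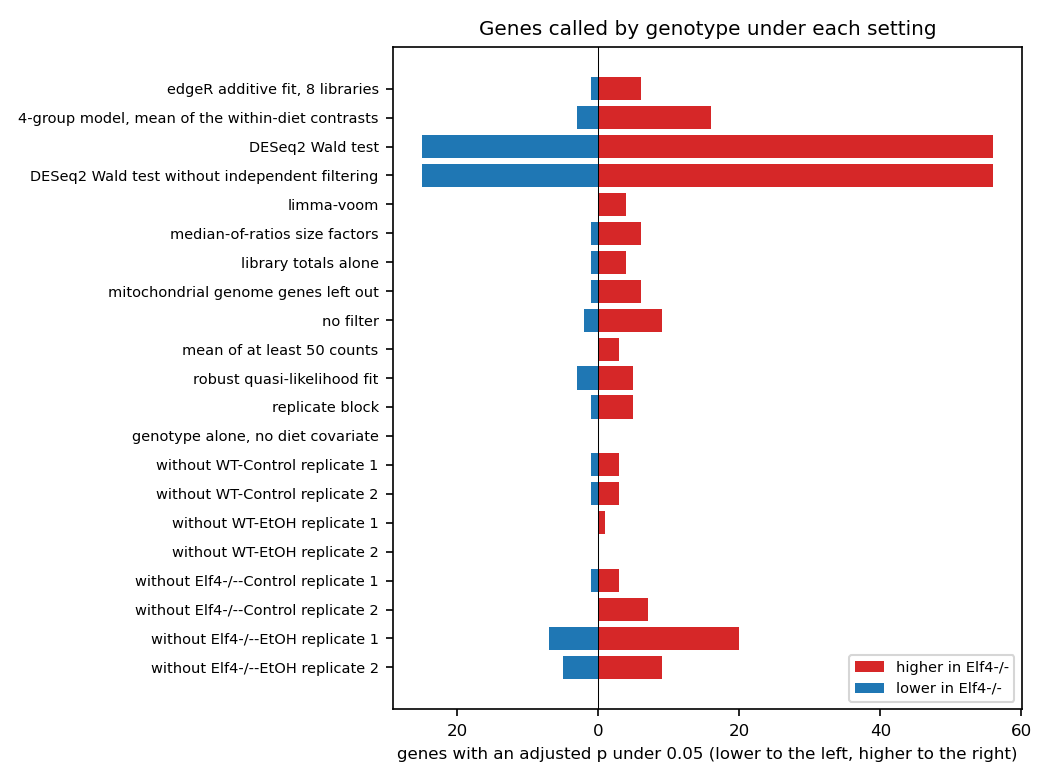
Number of genes with an adjusted p under 0.05 (x axis), higher in Elf4-/- to the right (red) and lower to the left (blue), for the additive edgeR fit on 8 libraries and each alternative. DESeq2 gives the longest bars (56 and 25), and the fits without WT-EtOH replicate 2 and without the diet covariate have none.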

How the data were processed

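Liver RNA of mice was sequenced by the authors as 8 libraries, and they per the study's methods mapped reads to mm10 with HISAT2, processed alignments with SAMtools, counted reads per gene with HTSeq and tested with DESeq2. Versions, annotation, strand setting and handling of shared reads were not given in the sources used here. The deposited table holds unnormalized whole-number counts, with 1 row per gene symbol and a column for each library.

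Here, filterByExpr by the 4 groups kept 13993 genes. An additive model of diet and genotype was fitted with edgeR 4.0.16 (R 4.3.3, TMM, quasi-likelihood), adjusting p by Benjamini-Hochberg across all tested genes at a threshold of 0.05. Log2 fold changes come from that fit, and those within a diet from the 4-group model. Each SE is the absolute log2 fold change divided by the square root of its F statistic. The 95% interval of Elf4 used the normal distribution, so it is narrower than one that allows for the few libraries. The script was tested on simulated data with genotype changes and no diet effect, which does not test the diet term. Named genes were those called that averaged 50 counts or more and had the same sign in both diets (12 largest per direction), Elf4, list members called or of smallest p, and, with under 10 calls, the 10 next by p. The comparison, the naming rule and the 33 lists were chosen with earlier results of these data known, so list counts are descriptions. The alternatives were DESeq2 1.42.0, limma-voom (limma 3.58.1), other scalings and filters, a robust fit, a replicate block, no diet term, a 4-group model and leaving out each library. Replicate numbers did not pair libraries (correlations of deviations −0.109 to 0.0594). Coordinates are from GENCODE M21 (GRCm38), which matched 97.3% of symbols. Intervals on counts cover counting error only. Some members of the lists are not reported by name here.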

Additional observations from a re-analysis of the deposited data

Results flagged for a closer look

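Within the 4 libraries of a genotype, 1 library stood apart from the other 3 in 4 of 96 sets of values for the named genes, and chance gives about 1 in 20. These sets span both diets. Ifi27, an interferon-induced gene, was at 65.0 CPM in WT-Control replicate 2, against 47.3 to 48.9 CPM in the other WT libraries. Socs2 was at 28.7 CPM in Elf4-/--EtOH replicate 2, against 11.2 to 13.4 CPM in the other Elf4-/- libraries. In Elf4-/--EtOH replicate 1, Cyp17a1, a steroid hydroxylase, was at 122 CPM against 3.58 to 15.9 CPM, and Gstm2, a glutathione transferase, was at 599 CPM against 25.4 to 74.9 CPM.

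Ly6c2, a monocyte gene of at most 3.28 CPM, lay above WT in both Elf4-/- libraries under Control (log2 fold change 1.28) and below WT in both under EtOH (−2.72). The interaction was −4.00 and did not pass adjustment (edgeR, unadjusted p = 0.00633).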

How the results depend on the processing

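The 6 higher and 1 lower genes became 16 and 3 with the mean of the within-diet contrasts of a 4-group model, 56 and 25 with DESeq2 with or without independent filtering, 3 and 0 when genes had to average 50 counts, and 0 and 0 without the diet covariate (267 and 187 at an unadjusted p under 0.05). The lower genes numbered 0 with limma-voom (4 higher), 2 with no filter (9 higher) and 3 with the robust fit (5 higher). Median-of-ratios size factors and leaving out mitochondrial genes gave 6 and 1, and library totals alone 4 and 1. With a replicate block the numbers were 5 and 1. The labels share only replicate numbers, whose deviations did not correlate. Called genes with no overlap within either diet, 7 in the additive fit, numbered 17 with the 4-group model, 73 with both forms of DESeq2, 4 with limma-voom, 11 with no filter, 3 when genes had to average 50 counts and 0 without the diet covariate. Leaving out 1 library gave 0 to 20 higher, 0 to 7 lower and 0 to 27 with no overlap. It gave 0 to 1 called gene that also passed the interaction test, the 1 without Elf4-/--EtOH replicate 2. Of 42 further genes chosen by the naming rule, 1 changed sign in an alternative run, Hbb-bs, a globin, which was 0.26 and ranged from −0.32 without Elf4-/--Control replicate 2 to 0.51 without replicate 1 of that group. No gene of the neutrophil and monocyte or pancreatic acinar lists averaged 50 counts, so that setting gave them no median. The cause of these differences was not tested. With 2 libraries a group, the median SE of 0.227 on the log2 scale limits what could be called.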
